A study of Rattus norvegicus with 24 samples.

Results

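A set of 204 genes was higher in cells with induced IRE1α at 24 h and lay close to the uninduced level when either of 2 IRE1α kinase ligands, PAIR1 or KIRA9, was present. The set was chosen by the measured 24 h levels, out of 26689 Ensembl gene IDs in the table. A member had a mean of at least 5 CPM (counts scaled to the same total in each library) in induced vehicle cells, a mean at least 1.75 times that of uninduced cells, and all 3 induced libraries above all 3 uninduced ones. The residual, which is the part of the induced difference still present with a compound, (compound minus uninduced) divided by (induced minus uninduced), was at most 20% for both compounds. Of 702 IDs past the level and fold limits, 644 had non-overlapping libraries, 219 of these met the PAIR1 limit, 405 met the KIRA9 limit and 207 met both; 3 of the 207 are among 5 IDs that the rule leaves out.

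The cells belong to the rat line INS1, which comes from an insulinoma and stands in for pancreatic beta cells, and every sample carries a doxycycline-inducible mouse IRE1α (Ern1) transgene on top of the cell's own gene. Uninduced cells got vehicle and no doxycycline. Induced cells got doxycycline with vehicle, with PAIR1 or with KIRA9, and RNA was taken at 4 h or 24 h. Each of the 8 groups holds 3 libraries. Doses, and whether the line is a single clone, are not stated in the labels. No group received a compound without doxycycline, and none received doxycycline without the transgene, so the transgene, doxycycline and effects of the compounds outside IRE1α cannot be told apart here.

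IRE1α is a sensor of protein folding stress in the membrane of the endoplasmic reticulum. Its kinase domain switches on its RNase domain, which splices Xbp1 mRNA, giving a transcription factor that widens folding capacity. When activation is strong, the RNase domain also cuts many other mRNAs at the reticulum, a process known as regulated IRE1-dependent decay. In beta cells, which make large amounts of insulin, prolonged strong IRE1α activity is known for loss of secretory transcripts and for cell death. Compounds that bind the kinase pocket can lower the RNase output fully, as the KIRA class does, or in part, as the title of the series says of the PAIR class.

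The table gives Ensembl IDs without names, and 0 of the 26689 IDs matched the RefSeq gene table used for names. The members could therefore not be sorted by function, the 22 pathway lists and 9 sets of cell type markers could not be read, and neither the beta cell identity of the line nor the Ern1 level could be checked by name. For the same reason 4 IDs are printed, 2 that were higher with induction at 24 h or with KIRA9 at 4 h and 2 that fell with a compound at 4 h, picked after their values were seen, and no sequence is shown. Other members are described by their rank, range and number. The level of an ID is in CPM, which is not per transcript length, so levels are compared between libraries and not between IDs. Changes are relative to the other RNAs of a library: less RNA per cell and fewer cells that hold it cannot be told apart in bulk samples.

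Library totals ran from 12586513 to 23796295 counts. All 204 members passed the filter on low counts, as did 13760 IDs in all, and no member had 0 counts in any library. A block of 41 IDs, chosen because each was higher in 6 libraries than in any of the other 18, held 0.667 to 0.744% of counts in those 6 and 0.0705 to 0.0853% in the others. The 6 libraries are induced 24 h replicates 1 and 2, PAIR1 24 h replicate 1, uninduced 24 h replicate 2, induced 4 h replicate 3 and uninduced 4 h replicate 2. None of the 41 IDs is a member. At 24 h they are 2 of the 3 induced vehicle, 1 of the 3 uninduced and 1 of the 3 PAIR1 libraries, and no KIRA9 library. Leaving out these 4 keeps only 1 induced vehicle library at 24 h, replicate 3. A choice of members without them would thus rest on that library, and nothing is read from it. Counts at 4 h are given below with and without the 6 libraries. For 6 libraries, those induced with vehicle, one label field gives the other time than the title does; the title was followed.

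At 24 h the members together took 1.51, 1.48 and 1.51% of counts in the 3 induced vehicle libraries. In the uninduced libraries they took 0.631, 0.678 and 0.682%, in the PAIR1 libraries 0.743, 0.754 and 0.770%, and in the KIRA9 libraries 0.633, 0.641 and 0.637%. The induced libraries thus stood apart from the other 9, and PAIR1 lay just above the uninduced range. KIRA9 lay inside that range only through uninduced replicate 1, and below the other 2 uninduced libraries. These shares follow from the rule and are a description, with no test.

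**Figure D1:**
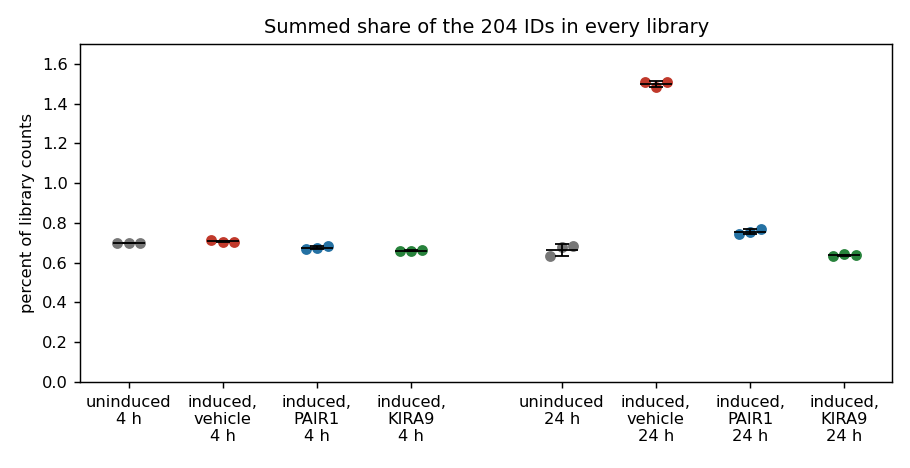
Percent of each library's counts taken by the 204 members together (vertical axis, from 0), by treatment and time. Points are the 3 libraries of a group, replicates 1 to 3 from left to right, and the line with bars is the mean ± SD (n = 3); the 3 induced vehicle libraries at 24 h lie between 1.48 and 1.51%, and all other libraries lie below 0.8%.

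The induced level was 1.75 to 16.1 times the uninduced one at 24 h, with a median of 1.98. It was under 2-fold in 109 members, 2-fold to 3-fold in 75 and at least 3-fold in 20, so most of the set lies near the lower limit of the rule. The 3 members nearest that limit had ratios of 1.752, 1.753 and 1.754, and the 3 nearest IDs outside it, which met every other condition, had 1.746, 1.745 and 1.745. On the side of the level limit, the lowest induced means among members were 5.14, 5.15 and 5.17 CPM, and the nearest outside were 4.96, 4.93 and 4.92 CPM.

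ENSRNOG00000000521 was rank 8 by this ratio. It stood at 181, 289 and 299 CPM in the uninduced libraries at 24 h and at 1208, 1197 and 1228 CPM in the induced vehicle libraries, a 4.72-fold difference of the means. With PAIR1 it stood at 356, 380 and 400 CPM, a residual of 12.8%, and with KIRA9 at 246, 253 and 247 CPM, a residual of -0.82%. The induced libraries were far above all others, every PAIR1 library was above every uninduced one, and KIRA9 fell within the uninduced range, which was wide because uninduced replicate 1 was low. At 4 h the same ID ranged from 286 to 323 CPM over all 12 libraries.

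The highest ratios did not all rest on 3 like libraries. Of the 12 members with the largest ratio, 4 had an over 3-fold spread among the replicates of at least 1 of the 8 groups, and 8 of all 204 members did. The member with rank 1, at 16.1-fold, had 0.761, 11.0 and 11.2 CPM in the induced libraries against 0.378, 0.309 and 0.740 CPM in the uninduced ones. Rank 2, at 10.7-fold, had 68.6 CPM in induced replicate 1 but 4.60 and 4.77 CPM in replicates 2 and 3, and it also reached 27.5 CPM in an uninduced and 45.4 CPM in a KIRA9 library at 4 h. In both the induced libraries were all higher than the uninduced ones, as the rule asks, while the size of the ratio came from 1 or 2 libraries. The small residuals of both rest on the same libraries. For rank 2 the PAIR1 libraries at 24 h (4.77, 4.55 and 4.72 CPM) lay near induced replicates 2 and 3. Its KIRA9 libraries (4.42, 3.77 and 4.37 CPM) lay above all uninduced ones. For rank 1, replicate 1 of PAIR1 (1.83 CPM) and of KIRA9 (0.883 CPM) exceeded induced replicate 1, and their other replicates lay below all uninduced libraries. The other 8 of the 12 had ratios from 3.86 to 8.86. None of the 8 members with a wide spread passed the test in a 4 h comparison.

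Under the compounds the members were near the uninduced level at 24 h, and KIRA9 was nearer to it, or further below it, than PAIR1. The residual had a median of 11.4% with PAIR1, with quartiles of 2.40 and 15.2%, and a median of -3.99% with KIRA9, with quartiles of -12.7 and 3.80%. Taken library by library, the median residual was 9.20, 9.17 and 11.0% with PAIR1 (9.79 ± 1.04%, SD, n = 3) and -3.77, -3.95 and -3.27% with KIRA9 (-3.66 ± 0.35%, SD, n = 3). All 3 values of a compound use the same uninduced and induced means, so the SD leaves out the spread of those groups. With 1 uninduced library left out, the mean of the KIRA9 library medians ran from -4.55 to -2.77%. The residual was smaller with KIRA9 in 182 members and smaller with PAIR1 in 22. The mean lay below the uninduced mean in 45 members with PAIR1, in 130 with KIRA9 and in 42 with both. A residual below -20% was seen in 4 members with PAIR1 and 30 with KIRA9, down to -37.6 and -62.8%. These values chose the members, so the comparison of the compounds at 24 h has no test.

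**Figure D2:**
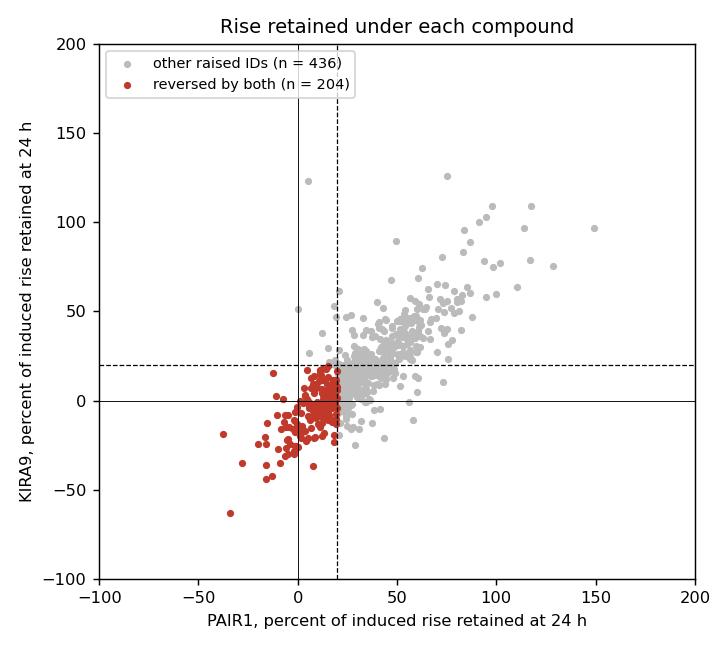
Percent of the induced rise retained at 24 h with PAIR1 (horizontal) and KIRA9 (vertical) for the IDs raised by induction under the level, fold and no-overlap conditions; red points are the 204 members, grey points the 436 others, and dashed lines mark the 20% limits. Members fill the lower left corner, most of them below the line at 0 for KIRA9; 2 IDs lie outside the axes, which run from -100 to 200%.

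The PAIR1 limit did most of the selecting: 198 raised IDs met the KIRA9 limit alone and 12 met the PAIR1 limit alone. With PAIR1 55 members had a residual of 15% or more, against 8 with KIRA9. The 3 members nearest the PAIR1 limit had residuals of 19.9, 19.8 and 19.6%, and the 3 nearest IDs outside had 20.07, 20.08 and 20.1%. For KIRA9 the nearest inside were 19.5, 17.8 and 17.8%, and the nearest outside 20.08, 20.6 and 21.4%.

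Counted by library, every PAIR1 library was below every induced vehicle library in 200 of 204 members, where 39.8% of all 13760 tested IDs did the same, and every KIRA9 library was in 203 (44.6% of all IDs). Against uninduced cells, every PAIR1 library was higher in 64 members (21.6% of all IDs) and lower in 2 (16.2%), while every KIRA9 library was higher in 13 (17.3%) and lower in 31 (17.6%). Every KIRA9 library was below every PAIR1 library in 89 members (21.2%), and the opposite held in 2 (14.3%). Nothing is read from these shares beyond the description, since the rule used all 12 libraries.

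The uninduced level itself was not fixed in time. The ratio of the uninduced mean at 24 h to that at 4 h had a median of 0.972 and ran from 0.213 to 2.63. Set against uninduced cells at 4 h, the induced level at 24 h was at least 1.75-fold higher in 151 members, 1.5-fold to 1.75-fold higher in 45 and below 1.5-fold in 8. ENSRNOG00000014205, with a ratio of 1.25, is 1 of these 8. It stood at 90.9, 87.8 and 88.6 CPM in uninduced cells at 4 h and at 40.5, 40.8 and 47.1 CPM at 24 h, and induced cells at 24 h had 115, 108 and 111 CPM. Its 2.60-fold difference at 24 h thus sets an induced level near that of 4 h against a lower uninduced level.

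The 4 h libraries took no part in the choice, and there each comparison was tested with edgeR's quasi-likelihood test over all 13760 IDs, with an ID called at an adjusted p below 0.05. The fit estimated the spread from all 24 libraries, so the 24 h libraries that chose the members also entered these p-values. Counts from fits without them, and adjusted p of the printed IDs, are given in the last section. The first question was whether members were already called for induction at 4 h. None of the 204 was: 0 were called higher, where 0.0363% of all tested IDs were, and 0 were called lower, where 0.262% were. A missing call does not show an equal level. The summed share of counts, given below, was slightly higher in every induced library than in every uninduced one. At an unadjusted p below 0.05, 7 were higher (3.43% of members against 2.97% of all IDs) and 2 were lower (0.980% against 3.08%), and DESeq2 also called 0. The median log2 change was 0.03 over the members and 0.00 over all IDs. By sign alone, 124 members had a positive change and 80 a negative one, a description with no test. The share of all IDs with a positive change was not counted. Few IDs of any kind were called for induction at 4 h, and the shares of members called, or with an unadjusted p below 0.05, are near those of all IDs or below them.

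The compounds were compared with induced vehicle cells at 4 h, a time when the members showed no call for induction. With KIRA9 29 members were lower, which is 14.2% of them against 5.66% of all tested IDs, and 4 were higher, 1.96% against 6.01%. The lower ones fell by 0.11 to 0.96 on the log2 scale. With PAIR1 9 members were lower, 4.41% against 0.887% of all IDs, with log2 changes from -0.74 to -0.11, and 0 were higher, where 2.31% of all IDs were; DESeq2 called 10 lower and 0 higher. At an unadjusted p below 0.05, 26 members were lower with PAIR1 (12.7%, against 5.63% of all IDs) and 3 were higher (1.47%, against 7.49%). The median log2 change was -0.09 over the members with KIRA9 and -0.05 with PAIR1, and 0.00 over all IDs in each. Both comparisons use the same 3 induced libraries.

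By sign alone, 135 members had a negative change with KIRA9 and 69 a positive one, most of them too small to pass. With PAIR1 these numbers were 147 and 57. The share of all IDs with a negative change was not counted, and their median changes were -0.0023 with KIRA9 and -0.0013 with PAIR1. Members share the same libraries, so the signs are a description with no test. Among IDs with a 4 h mean of at least 5 CPM 24 of 153 members were lower with KIRA9 (15.7%, against 7.02% of all such IDs) and 7 were lower with PAIR1 (4.58%, against 1.07%). A further 436 IDs were raised by induction at 24 h and not reversed by both compounds. Of these, 31 were lower with KIRA9 at 4 h (7.11%, against 5.66% of all IDs) and 45 were higher (10.3%, against 6.01%). With PAIR1 3 of the 436 were lower (0.688%, against 0.887% of all IDs) and 28 were higher (6.42%, against 2.31%). Their median log2 changes were -0.03 and 0.01. The difference between these IDs and the members was not tested.

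**Figure D3:**
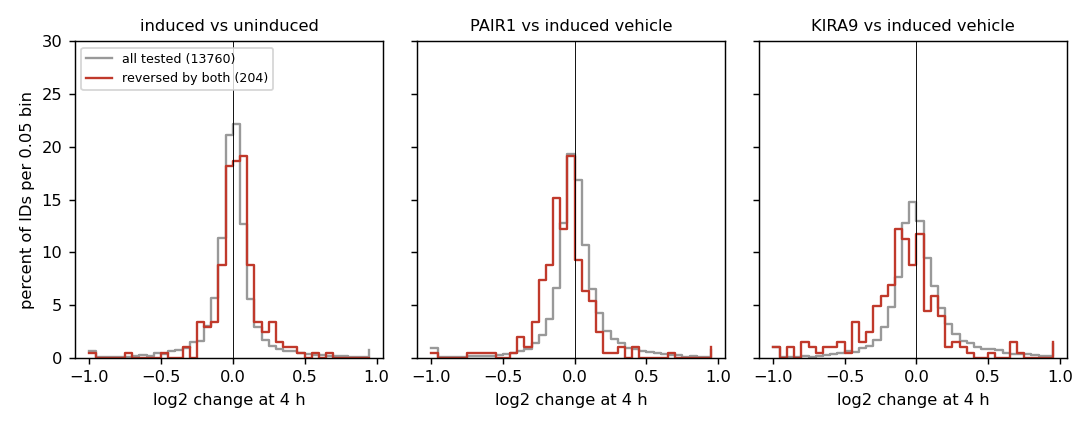
Distribution of log2 changes at 4 h (horizontal, bins of 0.05; values beyond ±1 stand in the end bins) as percent of IDs (vertical) for all 13760 tested IDs (grey) and the 204 members (red), for induction, PAIR1 and KIRA9. The red line lies to the left of the grey one in both compound panels, with medians of -0.05 and -0.09, and lies at 0.03 for induction.

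The summed share of counts showed the same at 4 h. It was 0.699, 0.699 and 0.697% in uninduced libraries, 0.712, 0.705 and 0.704% in induced vehicle libraries, 0.667, 0.676 and 0.681% with PAIR1 and 0.657, 0.658 and 0.661% with KIRA9. The 4 groups did not overlap, and the span from the lowest to the highest library was small beside the difference seen at 24 h. Abundant members weigh most in this sum, and no test was made of it.

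ENSRNOG00000027024 was lower with both compounds. At 4 h it stood at 117, 109 and 114 CPM in uninduced libraries and at 114, 117 and 111 CPM in induced ones. It stood at 93.7, 93.7 and 89.4 CPM with PAIR1 and at 73.1, 78.5 and 75.4 CPM with KIRA9. The vehicle groups overlapped, PAIR1 lay below both, and KIRA9 lay below PAIR1. The log2 change from induced vehicle was -0.30 ± 0.04 (SE) with PAIR1 and -0.60 ± 0.04 with KIRA9, with adjusted p of 2.9e-05 and 1.4e-10 in edgeR's test, and PAIR1 was higher than KIRA9 by 0.29 ± 0.04 (adjusted p = 4.5e-05).

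At 24 h the induced libraries of this ID stood at 218, 211 and 231 CPM and the uninduced ones at 118, 108 and 106 CPM. That both compounds lay below induced vehicle at 24 h follows from the rule. PAIR1 libraries had 111, 106 and 110 CPM, inside the uninduced range, and KIRA9 libraries 83.4, 81.9 and 83.3 CPM, all below it. The residuals were -1.28 and -25.4%.

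ENSRNOG00000014205 changed with KIRA9 at 4 h. It went from 96.1, 89.3 and 89.4 CPM in induced vehicle libraries to 55.4, 50.4 and 53.3 CPM, a log2 change of -0.79 ± 0.06 (SE; edgeR adjusted p = 4.5e-10). With PAIR1 it stood at 83.3, 78.2 and 81.8 CPM, a log2 change of -0.17 ± 0.05 that was not called (adjusted p = 0.097), and the difference between the compounds was 0.62 ± 0.06 (adjusted p = 8.5e-08). At 24 h PAIR1 libraries stood at 48.9, 52.9 and 51.9 CPM, just above the uninduced ones, and KIRA9 libraries at 30.4, 27.7 and 29.6 CPM, all below them.

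Against induced vehicle, 4 members were higher with KIRA9 at 4 h; their place below induced vehicle at 24 h was fixed by the rule. Their KIRA9 residuals at 24 h were 0.20, 12.5, -6.97 and 15.5%. The largest of the 4 changes at 4 h was that of ENSRNOG00000007319. It stood at 6.99, 8.67 and 7.58 CPM in uninduced, 8.02, 6.83 and 9.34 CPM in induced and 7.82, 8.46 and 7.99 CPM in PAIR1 libraries at 4 h. With KIRA9 it stood at 22.0, 20.7 and 20.6 CPM, above all 9 others by a wide gap. The log2 change from induced vehicle was 1.38 ± 0.15 (SE; edgeR adjusted p = 7.4e-07). PAIR1 minus KIRA9 was -1.38 ± 0.15 on the same scale (adjusted p = 2.5e-06). PAIR1 against induced vehicle gave 0.00 ± 0.16 (adjusted p = 1.00).

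At 24 h ENSRNOG00000007319 was highest in the induced libraries, at 29.6, 28.4 and 32.7 CPM, against 14.7, 12.4 and 11.8 CPM in uninduced ones. PAIR1 libraries had 13.3, 7.18 and 11.9 CPM and KIRA9 libraries 16.9, 15.5 and 14.5 CPM. So this ID was 1 of the few with a larger residual under KIRA9 (15.5%) than under PAIR1 (-12.7%). The other 3 members called higher with KIRA9 at 4 h had log2 changes of 0.25, 0.68 and 0.73.

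**Figure D4:**
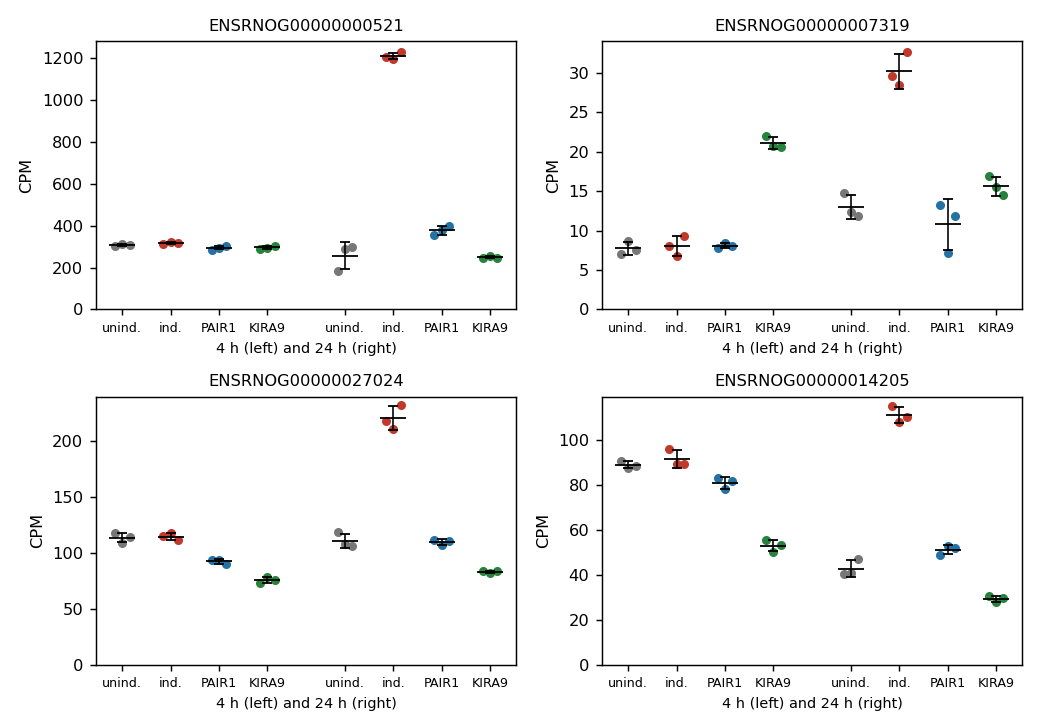
CPM (vertical axes, from 0) of the 4 printed IDs in all 24 libraries, with 4 h groups on the left and 24 h groups on the right of each panel (unind., uninduced; ind., induced with vehicle; PAIR1 and KIRA9, induced with the compound). Points are the 3 libraries of a group and bars the mean ± SD (n = 3); induced vehicle libraries are the highest at 24 h in all 4 panels, and KIRA9 at 4 h is low for ENSRNOG00000027024 and ENSRNOG00000014205 and high for ENSRNOG00000007319.

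The direct test of the compounds at 4 h found 7 members higher with PAIR1 than with KIRA9 (0.821% of all IDs were) and 3 lower (1.24% were). The log2 differences were 0.25 to 0.62 and -1.38 to -0.21. For the remaining 194 members no difference passed; the quartiles of PAIR1 minus KIRA9 over all 204 were -0.09 and 0.11, and an uncalled difference does not show that the compounds act alike. Doses are not stated, so the treatments are compared as applied.

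Measured against uninduced cells, KIRA9 at 4 h left 25 members lower (5.49% of all IDs were) and 6 higher (5.44%), at a time when no member passed the test for induction. PAIR1 left 7 lower (0.988% of all IDs were) and 1 higher (1.56%). The called falls ran from -0.87 to -0.17 with KIRA9 and from -0.32 to -0.13 with PAIR1 on the log2 scale.

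The 4 h change with KIRA9 was then set beside the 24 h residual, which comes from other libraries. The rule used the residuals of both compounds and capped them at 20%, and IDs outside the set were not examined in this way. The 29 members lower with KIRA9 at 4 h had a median KIRA9 residual of -12.7% at 24 h (quartiles -22.5 and 1.64%), and the other 175 had -3.47% (quartiles -10.2 and 4.12%). The KIRA9 mean at 24 h was below the uninduced mean in 21 of the 29 and in 109 of the 175. Their median PAIR1 residuals were 7.05 and 11.7%. Across the 204 members, which share libraries and are not independent replicates, Spearman's rho between the KIRA9 change at 4 h and the KIRA9 residual was 0.36 (Pearson's r = 0.32), and across the 71 with a 4 h mean of at least 20 CPM it was 0.44 (r = 0.63). For PAIR1 rho was 0.28 (r = 0.05) and 0.41 (r = 0.57). It is given as a description with no test.

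**Figure D5:**
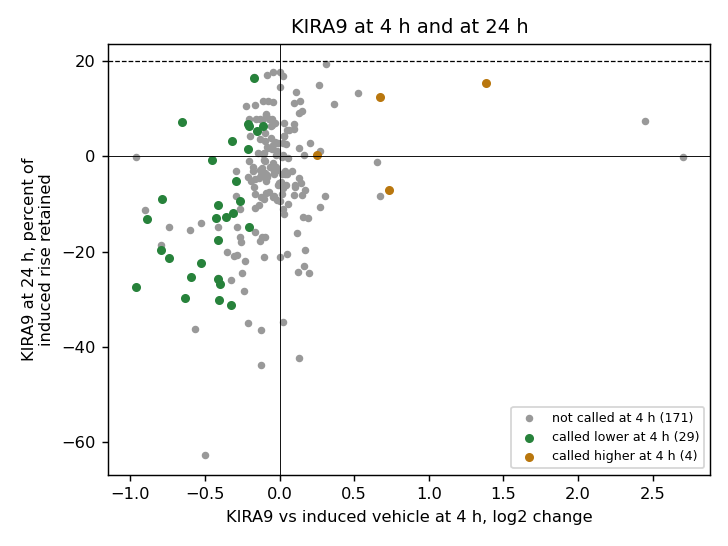
Log2 change with KIRA9 against induced vehicle at 4 h (horizontal) and percent of the induced rise retained with KIRA9 at 24 h (vertical) for the 204 members; green points were called lower at 4 h (29), orange called higher (4) and grey not called (171), and the dashed line is the 20% limit. Green points reach from 16.6 to -31.3% on the vertical axis, with 21 of 29 below 0.

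Several counts at 4 h were lower with fewer libraries. A test with fewer libraries also has less power, so these drops do not show that single libraries carried the calls. With the 6 libraries that stand apart left out, KIRA9 against induced vehicle gave 17 lower and 4 higher members and PAIR1 gave 2 lower. The PAIR1 count of 9 was 4 without induced replicate 3, 3 without PAIR1 replicate 2 and 2 without PAIR1 replicate 3. The KIRA9 count of 33 in both directions was 24 to 29 with any 1 of its 6 libraries left out. With the other time label for the induced vehicle libraries, 199 members were higher with induction at 4 h, but that comparison then uses the libraries that chose them.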

How the data were processed

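Values are deposited as whole-number counts, 1 row per Ensembl gene ID, and show no normalisation by the authors. HISAT2 and HTSeq are named per the submitters' processing notes; their versions, the genome build, the annotation and the strand setting are not given in the sources used here. Overlapping or near-identical genes may share reads. Libraries came from poly(A)-enriched RNA, per the labels' protocols. Columns were matched to samples by treatment, time and replicate in the title.

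The members and lists were chosen with earlier results of these data known. Levels are CPM of the column total, as the rule asks. Tests used edgeR 4.0.16 in R 4.3.3: filterByExpr over 8 groups (minimum count 10), TMM, 1 quasi-likelihood fit with a mean per group over all 24 libraries, and Benjamini-Hochberg adjustment over 13760 IDs. DESeq2 1.42.0, other scalings and filters, left-out libraries, the exchanged time label and other limits of the rule were alternatives. The rule for named genes took list members, the 12 largest ratios, the 8 highest induced levels, the largest called 4 h changes, the neighbours of each limit and the extreme residuals; without gene names at most 2 IDs per direction are printed from it. Nothing in the labels says that replicates came from separate cultures, so p-values measure the spread between these samples, which may be technical. Replicates differed by more than counting noise (chi-square per degree of freedom 3.52 to 18.5). Same-numbered libraries did not deviate together, so no replicate block was used.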

Additional observations from a re-analysis of the deposited data

Results flagged for a closer look

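A pair of counts stood out because every library went one way at 4 h and the opposite way at 24 h under the same comparison with induced vehicle cells. With KIRA9, 10 members (4.90%) had all 3 libraries above all 3 induced libraries at 4 h and all 3 below them at 24 h, ENSRNOG00000007319 among them, against 540 of 13760 tested IDs (3.92%). With PAIR1, 4 members (1.96%) did so, against 321 of all IDs (2.33%). The difference between the times was not tested, because the rule fixed the 24 h direction, and both shares lie near those of all IDs.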

How the results depend on the processing

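The number of members depended on the limits and the scaling of the rule. It was 528 at a fold of at least 1.5 and 95 at 2, 89 with residuals of at most 0.1 and 332 at 0.3, and 345 with an induced mean of at least 1 CPM. TMM scaling lowers every induced ID at 24 h by 0.14 (log2) against uninduced libraries and left 101, all of them members. With the time label exchanged for the induced vehicle libraries the rule found 6, of which 2 are members. It found 191 to 225 with any 1 of the 24 h libraries left out, but these were not all the same IDs. Without 1 uninduced library, 165 to 167 of the members (80.9 to 81.9%) were found again. Without 1 induced vehicle or PAIR1 library, 181 to 187 members were found again, and without 1 KIRA9 library 200 to 203.

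Among counts of called members at 4 h, induction stayed at 0 in every setting but the exchanged time label (199). PAIR1 against induced vehicle gave 3 at an adjusted p below 0.01, 2 without the 6 libraries that stand apart, 194 with the exchanged label and 2 to 6 with 1 library left out. KIRA9 against induced vehicle gave 20, 21, 193 and 24 to 29 in these settings. PAIR1 against uninduced cells, 8 in the main test, gave 3, 1, 4 with only the compared groups fitted and 3 to 6 with 1 library left out, and KIRA9 against uninduced cells, 31 in the main test, gave 19, 20 and 22 to 27. PAIR1 against KIRA9 gave 8 to 10 with 1 library left out. With only the compared groups fitted, no 24 h library entered the estimate of the spread. PAIR1 against induced vehicle then gave 7 lower members, and KIRA9 against induced vehicle gave 24 lower and 5 higher. RLE factors, library totals, no filter and DESeq2 left all 6 counts within 1.5 times.

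With the replicate block the counts were 0 for induction, 7 and 35 for PAIR1 and KIRA9 against induced vehicle, 10 for PAIR1 against KIRA9, and 9 and 31 against uninduced cells. Same-numbered libraries at 4 h correlated in their deviations at a median r of 0.02 (-0.25 to 0.11, 18 pairs), so the numbers were not taken as pairs.

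Of the printed IDs, the called changes kept their direction, except that of ENSRNOG00000007319 with KIRA9, which was -0.39 with the exchanged label. That label also turned 4 uncalled changes from induced vehicle into calls: ENSRNOG00000007319 with PAIR1 (-1.77), ENSRNOG00000000521 with KIRA9 (-1.90) and PAIR1 (-1.91), and ENSRNOG00000014205 with PAIR1 (-0.32, edgeR adjusted p = 1.7e-05). Near-zero changes changed sign with 1 library left out: ENSRNOG00000007319 with PAIR1 ran from -0.10 to 0.12 and was -0.03 without PAIR1 replicate 2, and ENSRNOG00000000521, PAIR1 against KIRA9, ran from -0.030 to 0.014 and was 0.0136 without KIRA9 replicate 3. The mean of the library medians of the residual was 9.79% with PAIR1 and -3.66% with KIRA9. In alternatives added after seeing the data, with 1 library left out, it ran from 8.44 to 10.5% with PAIR1 and from -4.55 to -2.77% with KIRA9. The causes of these shifts were not tested.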
